A study of Mus musculus with 10 samples.

Results

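Lcn2, Serpina3n, Lrg1, Cp, Saa3, Hp, Hpx, Steap4 and Aspg are acute-phase genes that are read as markers of reactive glia. These 9 genes, of 18193 measured, were followed in the mouse brain 24 h after ischemic stroke, modelled by surgical occlusion of the middle cerebral artery (MCAO). They were chosen by name with earlier results of these arrays known, so counts over them describe these genes and are not independent evidence. A probe set was used only where the platform annotation gave it exactly 1 gene symbol, and each gene was read from whichever of its probe sets averaged highest across the 10 arrays. All 9 genes were found. The label under which they were gathered calls them secreted, which holds for 7 of them as background knowledge. Steap4 encodes a membrane metalloreductase and Aspg an asparaginase, and neither is known as a secreted protein.

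Each array held total RNA of hemisphere tissue from male mice. The wild-type (WT) groups were sham-operated mice with 2 arrays and MCAO mice with 3 arrays. The Hsp72Tg groups, from mice that overexpress the stress-inducible chaperone Hsp72, were sham-operated with 2 arrays and MCAO with 3 arrays. RNA came from the ischemic side after MCAO and from the same side in sham mice, and all 4 groups had surgery. For transgene promoter, strain and age nothing is stated in the sources used here. The series asks how Hsp72 relates to astrocyte activation after stroke.

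The acute-phase response is the change in secreted proteins that follows injury or infection. Cytokines of the interleukin-6 family and interleukin-1 act through the transcription factors STAT3, C/EBP and NF-kappaB, best known in hepatocytes, and raise transcription of iron and heme binding proteins, protease inhibitors and serum amyloid proteins. Injured brain makes several of the same proteins, and Lcn2 and Serpina3n are among the genes most used to recognise reactive astrocytes. Neutrophils, vessel cells and the choroid plexus can make some of them too.

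The values are log2 RMA expression values, and all differences here are on the log2 scale. Across genes, which are not independent replicates, any 2 arrays correlated at r = 0.977 to 0.997. The genotype could not be checked by transcript. Hspa1b, which encodes mouse Hsp72, averaged 9.14 in Hsp72Tg sham and 9.43 in WT sham, and whether its probes read the transgene was not tested. The array WT sham 1 alone carried cerebellar signal: the mean of 11 cerebellar markers relative to the WT sham mean was 0.85 there and between -0.99 and -0.77 on the other 9 arrays. The array Hsp72Tg MCAO 1 had the lowest MCAO value in 8 of the 9 genes, and 5 of the 9 stood above every sham array there. The labels do not say that each array is a separate animal, so p-values measure the spread between these arrays. No cells were separated, so fewer cells of a type and less RNA per cell cannot be told apart, nor can the cells that made a transcript be named.

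Averaged over both genotypes, 5 of the 9 genes rose after MCAO at a Benjamini-Hochberg adjusted p under 0.05 in limma, against 1.06% of all genes that rose and 1.46% that changed in either direction. These were Lcn2, Serpina3n, Lrg1, Cp and Aspg. Their changes ran from 1.28 for Cp to 4.38 for Lcn2, and the median over the 9 genes was 1.39 against -0.03 over all genes. Saa3, Hp, Hpx and Steap4 did not pass. In WT alone 2 of 9 rose, Serpina3n and Lrg1, where 0.0495% of all genes did. In Hsp72Tg alone 0 of 9 passed in limma, where 0.022% of all genes passed in either direction, while 6 of 9 had an unadjusted p under 0.05, as had 12% of all genes. A change of at least 1 was seen for 6 of 9 genes in WT, in Hsp72Tg and over both, where 1.27%, 0.934% and 1.03% of all genes had such a change.

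**Figure D1:**
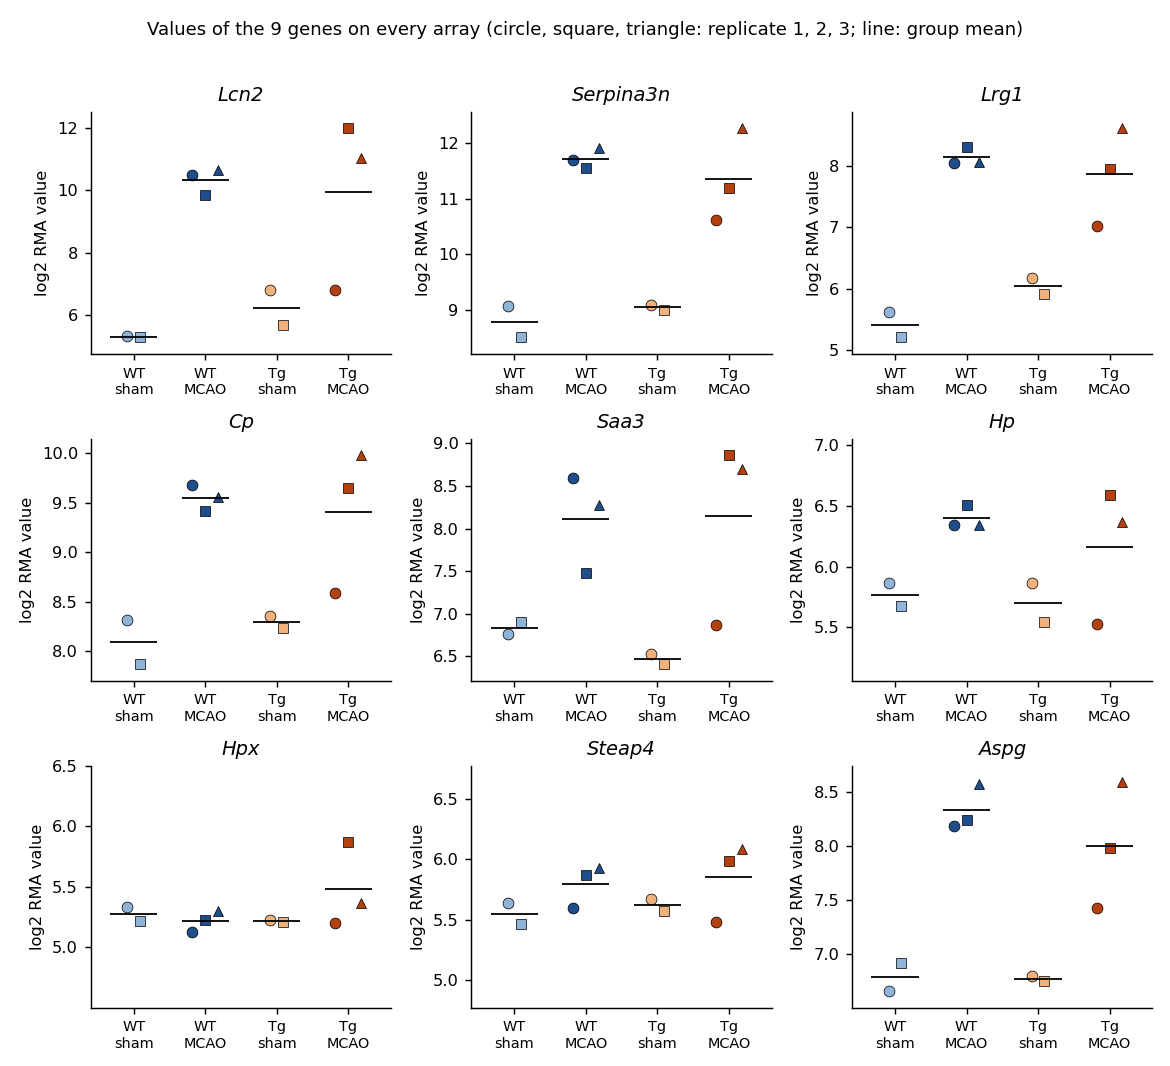
Log2 RMA value (y axis, a separate scale per gene) of the 9 genes on each of the 10 arrays by group (x axis), with replicates as circles, squares and triangles and the group mean as a line. For Lcn2, Serpina3n, Lrg1, Cp and Aspg all 6 MCAO arrays lie above all 4 sham arrays, with the circle of Hsp72Tg MCAO (replicate 1) lowest.

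The calls depended on single arrays. Without Hsp72Tg MCAO 1, 7 of 9 genes rose in WT, 7 in Hsp72Tg and 8 over both genotypes, all but Hpx, where 2.54%, 6.49% and 12.4% of all genes passed. Without WT sham 1, the array with cerebellar signal, 2 passed over both genotypes, Serpina3n and Lrg1, where 0.0934% of all genes did. Within WT and within Hsp72Tg 0 then passed in limma, with 5 and 6 at an unadjusted p under 0.05, as had 5.18% and 9.79% of all genes. Without Hsp72Tg sham 1, 0 of 9 passed over both genotypes in limma and 7 had an unadjusted p under 0.05, as had 15.1% of all genes, while 11 of all genes were called. Without Hsp72Tg sham 2, or any 1 of the 3 WT MCAO arrays or WT sham 2, the count over both genotypes was 2, Serpina3n and Lrg1 each time. Without Hsp72Tg MCAO 2 or Hsp72Tg MCAO 3 it was 4, with Serpina3n, Lrg1 and Aspg in both fits.

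The iron and heme binding genes differed widely among themselves. Lcn2 encodes lipocalin-2, a small secreted protein that binds the siderophores with which bacteria take up iron. Its values were 5.30 and 5.27 in WT sham and 6.79 and 5.66 in Hsp72Tg sham. After MCAO they were 10.48, 9.84 and 10.67 in WT and 6.79, 12 and 11.06 in Hsp72Tg. The 3 WT arrays and the other two Hsp72Tg arrays stood far above every sham array, and Hsp72Tg MCAO 1 stood level with Hsp72Tg sham 1, only 0.0066 above it. The change over both genotypes was 4.38 (SE 0.84), a 20.9-fold rise with a 95% interval of 5.67 to 76.8, at an adjusted p = 0.0428 in limma. It ranked 1 of 18193 genes by size. In WT Lcn2 differed by 5.04 (SE 1.19, adjusted p = 0.184 in limma), also rank 1, and in Hsp72Tg by 3.73 (SE 1.19, adjusted p = 0.341), rank 2. Neither of these passed. The fit takes 1 spread from all 4 groups, and the Hsp72Tg MCAO arrays spanned 5.21, against 0.83 for the WT MCAO arrays. Without Hsp72Tg MCAO 1 the SE over both genotypes was 0.27 and the change 5.17 (adjusted p = 5.04e-06). Leaving out any other single array except Hsp72Tg MCAO 2 ended the call over both genotypes, with adjusted p up to 0.16, as did quantile normalization (limma adjusted p = 0.0507) and the trend and robust options of eBayes (0.0911).

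Promoter sequence is shown for the members whose windows hold the searched motifs and for Serpina3n and Lrg1, which rose and hold none, since STAT and C/EBP factors are the textbook route to these genes. The sequences are RefSeq's for GRCm38.p6, read 5′ to 3′ on the strand of the gene, and capitals mark the searched letters. The motifs were TTCNNNGAA for STAT, TTGCNNAA for C/EBP and for NF-kappaB GGGA and TCC with any 3 bases between them, on both strands. Over 32851 promoter windows of 250 bases, 7.02% held the STAT letters, 9.56% the C/EBP letters, 3.86% the NF-kappaB letters and 19.1% any of them. A match of this kind is a description of letters and not a binding site. The 250 bases before the Lcn2 start, at chr2:32387740-32387989 on the minus strand, hold the C/EBP letters from base -216 to -209 before the start.
Lcn2: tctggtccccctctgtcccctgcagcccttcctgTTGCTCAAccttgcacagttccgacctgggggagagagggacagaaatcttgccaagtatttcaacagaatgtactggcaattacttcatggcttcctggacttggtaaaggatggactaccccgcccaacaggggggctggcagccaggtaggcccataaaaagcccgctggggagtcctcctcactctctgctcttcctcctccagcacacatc

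Cp encodes ceruloplasmin, the copper enzyme that oxidises ferrous iron, and astrocytes are known to carry it on their surface. Its values were 8.32 and 7.87 in WT sham, 8.36 and 8.23 in Hsp72Tg sham, 9.67, 9.42 and 9.55 in WT MCAO, and 8.59, 9.64 and 9.98 in Hsp72Tg MCAO. All 6 MCAO arrays stood above the 4 sham arrays, Hsp72Tg MCAO 1 by 0.23. Cp rose by 1.28 over both genotypes (SE 0.23, 2.43-fold, adjusted p = 0.0377 in limma). It differed by 1.45 in WT (adjusted p = 0.163) and by 1.11 in Hsp72Tg (adjusted p = 0.334). Cp is read by 8 probe sets, and they disagreed.

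Of the 8 Cp probe sets, 5 gave changes of 1.07 to 1.75 over both genotypes and 3 gave 0.40, 0.28 and -0.02. Those 3 were also the dimmest, with means over the arrays of 4.37, 6.31 and 6.40. The means of the other 5 ran from 7.27 to 8.96. The probe set 1455393_at changed most, from between 6.38 and 6.73 in sham to between 7.41 and 8.75 after MCAO. The probe set 1417497_at stayed between 6.21 and 6.57 in sham and between 6.30 and 6.52 after MCAO, a difference of -0.02 (SE 0.07). Which transcripts or transcript ends each probe set reads was not tested.

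**Figure D2:**
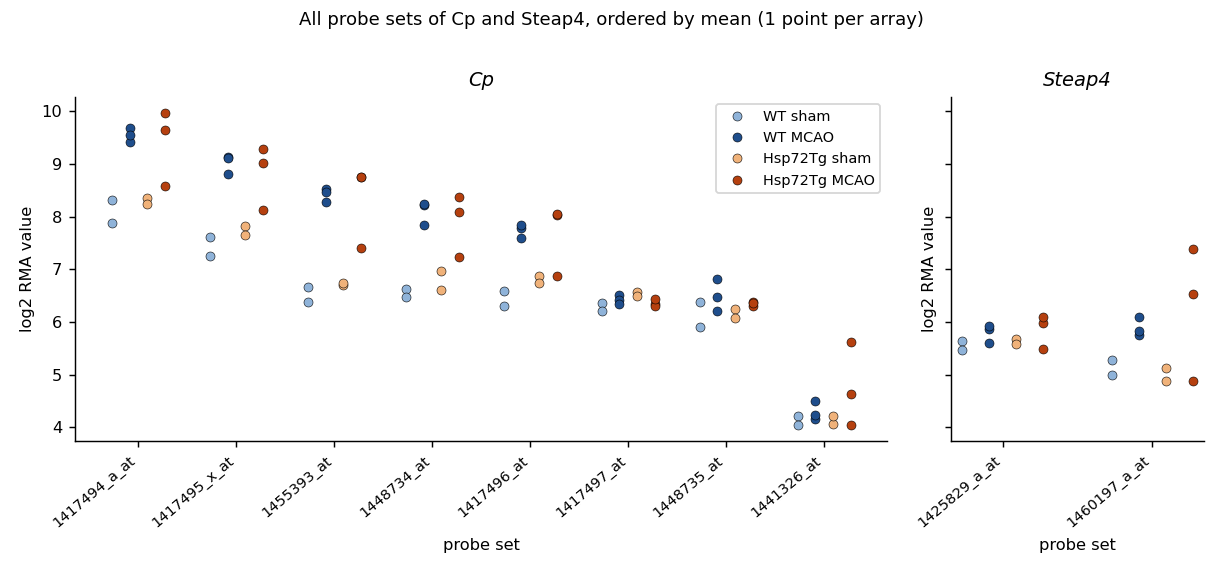
Log2 RMA value (y axis) on each array for the 8 probe sets of Cp and the 2 of Steap4, ordered by their mean (x axis), with 1 point per array coloured by group. The MCAO points of 1455393_at lie above its sham points, those of 1417497_at lie among them, and the second Steap4 probe set reaches 7.38 on 1 Hsp72Tg MCAO array.

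Hp and Hpx encode haptoglobin and hemopexin, plasma proteins that bind free hemoglobin and free heme. Hp measured 5.86 and 5.67 in WT sham, 5.86 and 5.54 in Hsp72Tg sham, 6.34, 6.51 and 6.34 in WT MCAO, and 5.52, 6.59 and 6.37 in Hsp72Tg MCAO. The 3 WT MCAO arrays lay above all sham arrays, whereas Hsp72Tg MCAO 1 was the lowest of all 10 arrays. The difference over both genotypes was 0.54 (SE 0.18, adjusted p = 0.152 in limma), and 0.70 (SE 0.10, adjusted p = 0.00172) without Hsp72Tg MCAO 1. Hpx stayed between 5.21 and 5.33 in sham and between 5.13 and 5.37 on 5 MCAO arrays, with 5.87 on Hsp72Tg MCAO 2. Its difference over both genotypes was 0.10 (95% interval -0.16 to 0.37, adjusted p = 0.685), and in WT -0.05. Hpx was thus the member for which no comparison passed, with or without Hsp72Tg MCAO 1.

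Steap4 encodes a membrane enzyme that reduces iron and copper before uptake and is known to be induced by inflammatory cytokines. On the chosen probe set it measured 5.64 and 5.46 in WT sham, 5.67 and 5.57 in Hsp72Tg sham, 5.60, 5.87 and 5.93 in WT MCAO, and 5.49, 5.99 and 6.09 in Hsp72Tg MCAO. Sham and MCAO arrays overlapped, and the difference was 0.24 (SE 0.12, adjusted p = 0.328). A second probe set, 1460197_a_at, lay between 4.88 and 5.27 in sham and at 6.09, 5.74 and 5.83 in WT MCAO, and at 4.87, 7.38 and 6.53 in Hsp72Tg MCAO. It differed by 1.01 (SE 0.39), with an adjusted p = 0.221 in limma over all 34945 probe sets, so the size of any Steap4 change depends on the probe set.

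Hp, Hpx and Steap4 were dim on these arrays. None of them exceeded the array median in at least 2 arrays, the filter for dim probe sets, so a small transcript change in them was measured with little signal. Lcn2 and Lrg1 were dim in sham as well. There 19.1% to 38.3% of all genes lay below Lcn2 and 18.2% to 30.5% below Lrg1. The rises of these 2 genes were thus measured from a dim sham level. The letters of the C/EBP motif lie in the promoter windows of Hpx and Steap4, and Steap4 alone of the members held the STAT letters. Its 250 bases are at chr5:7960222-7960471 on the plus strand. Hpx is shown as the 30 bases around its match at chr7:105600298-105600327 on the minus strand, and Cp as the 30 bases at chr3:19957168-19957197 on the plus strand, in the window before the later of its 2 start sites and inside the annotated gene.
Steap4: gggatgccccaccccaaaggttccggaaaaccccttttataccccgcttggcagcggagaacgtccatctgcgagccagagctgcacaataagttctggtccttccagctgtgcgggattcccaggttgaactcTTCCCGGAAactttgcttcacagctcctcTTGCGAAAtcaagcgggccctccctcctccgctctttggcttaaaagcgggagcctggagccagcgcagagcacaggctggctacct
Hpx: tggctggaaatTTGCTGAAgggggtagggg
Cp: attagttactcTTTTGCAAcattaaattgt

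Serpina3n is the protease inhibitor of the set. It encodes a secreted serpin related to human alpha-1-antichymotrypsin. Its values were 9.06 and 8.50 in WT sham, 9.09 and 9.0 in Hsp72Tg sham, 11.71, 11.56 and 11.91 in WT MCAO, and 10.61, 11.20 and 12.27 in Hsp72Tg MCAO. Every MCAO array stood at least 1.52 above the highest sham array, also Hsp72Tg MCAO 1, the widest such gap among the 9 genes. Serpina3n rose by 2.63 over both genotypes (SE 0.27, 6.18-fold, 95% interval 4.06 to 9.41, adjusted p = 0.00542 in limma). In WT it rose by 2.94 (SE 0.38, 7.69-fold, adjusted p = 0.0426), and in Hsp72Tg it differed by 2.31 (SE 0.38, adjusted p = 0.183). In WT it no longer passed when any 1 of the 4 sham arrays or of the 3 WT MCAO arrays was left out, with adjusted p up to 0.304.

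Lrg1 encodes a secreted leucine-rich glycoprotein that is known to modify TGF-beta signalling in vessels. Its values were 5.61 and 5.21 in WT sham, 6.17 and 5.92 in Hsp72Tg sham, 8.05, 8.31 and 8.07 in WT MCAO, and 7.03, 7.95 and 8.61 in Hsp72Tg MCAO. The groups did not overlap, and Hsp72Tg MCAO 1 stood 0.86 above the highest sham array. Lrg1 rose by 2.28 over both genotypes (SE 0.25, 4.84-fold, 95% interval 3.27 to 7.17, adjusted p = 0.00764 in limma). In WT it rose by 2.73 (SE 0.36, 6.64-fold, adjusted p = 0.0426), and in Hsp72Tg it differed by 1.82 (SE 0.36, adjusted p = 0.312). The WT call was lost without any 1 of the same 7 arrays, as for Serpina3n. The WT calls of both genes were also lost in limma with means over probe sets, where the adjusted p lay just above the threshold, with quantile normalization (adjusted p = 0.0569 for each) and with the trend and robust options (0.0616 for Serpina3n and 0.0569 for Lrg1).

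Neither Serpina3n nor Lrg1 held any of the searched letters in the window before its start, and both rose over both genotypes in each fit that left out 1 array, except that without Hsp72Tg sham 1. The Lrg1 window is chr17:56121947-56122196 on the minus strand. For Serpina3n the 188 bases up to the annotated gene are shown, chr12:104406458-104406645 on the plus strand. No capitals appear in them.
Lrg1: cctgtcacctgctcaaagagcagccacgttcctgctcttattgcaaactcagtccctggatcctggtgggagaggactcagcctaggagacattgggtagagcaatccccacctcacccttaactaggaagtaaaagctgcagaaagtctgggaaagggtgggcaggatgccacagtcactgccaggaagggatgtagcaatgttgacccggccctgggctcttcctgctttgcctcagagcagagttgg
Serpina3n: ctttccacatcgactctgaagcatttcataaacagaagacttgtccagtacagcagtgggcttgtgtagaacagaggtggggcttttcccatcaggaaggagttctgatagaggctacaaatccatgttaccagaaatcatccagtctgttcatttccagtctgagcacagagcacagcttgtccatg

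Saa3 encodes an inducible serum amyloid A that is made mainly outside the liver. Its values were 6.77 and 6.91 in WT sham, 6.53 and 6.41 in Hsp72Tg sham, 8.59, 7.47 and 8.28 in WT MCAO, and 6.87, 8.86 and 8.70 in Hsp72Tg MCAO. Hsp72Tg MCAO 1 lay above both Hsp72Tg sham arrays but 0.03 below the higher WT sham array, and the other 5 MCAO arrays stood above all sham arrays. The difference over both genotypes was 1.48 (SE 0.37, adjusted p = 0.0802 in limma), so Saa3 did not pass despite a larger mean change than Cp or Aspg. Without Hsp72Tg MCAO 1 it was 1.80 (SE 0.19, adjusted p = 0.000431). The C/EBP letters lie from base -99 to -92 before the RefSeq start. That start has 3939 bases of the annotated Saa3 gene upstream of it, so these letters lie inside the gene. They are shown with 30 bases at chr7:46715757-46715786 on the minus strand.
Saa3: ggtaagtgggaTTATGCAAgatcaaacagg

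Aspg encodes an asparaginase, an enzyme that splits asparagine, and appears on lists of genes of reactive astrocytes. Its values were 6.66 and 6.91 in WT sham, 6.79 and 6.75 in Hsp72Tg sham, 8.18, 8.24 and 8.57 in WT MCAO, and 7.42, 7.98 and 8.59 in Hsp72Tg MCAO. The 4 sham arrays lay within 0.26 of each other and every MCAO array was at least 0.51 above them. Aspg rose by 1.39 over both genotypes (SE 0.19, 2.61-fold, adjusted p = 0.0176 in limma), and differed by 1.55 in WT (adjusted p = 0.097) and by 1.23 in Hsp72Tg (adjusted p = 0.321). Its promoter window, which is not shown, held none of the searched letters. Over the 8 members with a window, 5 held the C/EBP letters, 1 the STAT letters and 0 the NF-kappaB letters.

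The arrays of a group did not move alike. Relative to the WT sham mean of each gene, the median of the 9 genes was 1.58, 1.32 and 1.46 in the 3 WT MCAO arrays and 0.49, 1.55 and 1.86 in the 3 Hsp72Tg MCAO arrays. On Hsp72Tg MCAO 1, 8 of the 9 genes had their lowest MCAO value, where 20.1% of all genes did. That share was 94.1% among the 187 genes with a change of at least 1 over both genotypes, so the members shared this with most genes of large change. Of the 9 genes, 4 were highest on Hsp72Tg MCAO 2 and 5 on Hsp72Tg MCAO 3. Hspa1b stood at 12.05 on Hsp72Tg MCAO 1, above every sham array and above the 11.85 of WT MCAO 1. It was higher on the other MCAO arrays, at 12.84 and 12.73 on WT MCAO 2 and 3. On Hsp72Tg MCAO 2 and 3 it was 13.96 and 13.09. What sets Hsp72Tg MCAO 1 apart was not tested.

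**Figure D3:**
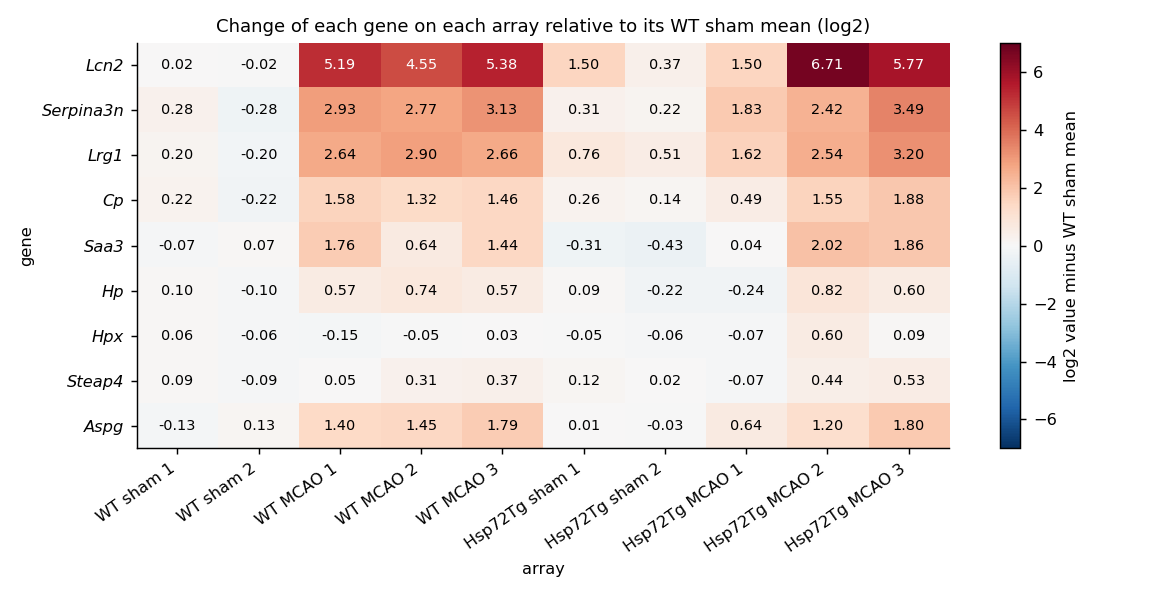
Log2 value of each of the 9 genes (rows) on each array (columns) minus the mean of the gene in WT sham, written in each cell and coloured from blue (lower) to red (higher). Lcn2 reaches 6.71 on Hsp72Tg MCAO 2 but 1.5 on Hsp72Tg MCAO 1, as on Hsp72Tg sham 1.

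The number of members above all 4 sham arrays differed by array too. It was 7, 8 and 8 in WT MCAO and 5, 9 and 9 in Hsp72Tg MCAO, where 27.2%, 19.5%, 22.6%, 16.8%, 23.5% and 26.2% of all genes lay above all sham arrays. In WT 7 of 9 members had all 3 MCAO arrays above both sham arrays, where 16.4% of all genes had. In Hsp72Tg 6 of 9 had, where 9.05% of all genes had, and over both genotypes 5 of 9 had all 6 above all 4, where 3.19% of all genes had.

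No member passed a test of a difference between the genotypes. The MCAO change differed between Hsp72Tg and WT for 0 of 9 members in limma at an adjusted p under 0.05, and for 0 at an unadjusted p under 0.05, where 0% and 1.75% of all genes passed. The difference of the changes, Hsp72Tg minus WT, was -1.31 for Lcn2 with a 95% interval of -5.07 to 2.44. It was -0.91 for Lrg1 (interval -2.05 to 0.22), -0.63 for Serpina3n (-1.84 to 0.58) and -0.32 for Aspg (-1.19 to 0.55). The Lcn2 interval holds MCAO changes in Hsp72Tg that are far smaller and far larger than in WT. At an unadjusted p under 0.05, 1 member differed without Hsp72Tg MCAO 1, Saa3 at 1.03 (SE 0.39), and 2 without Hsp72Tg MCAO 3, Serpina3n at -1.09 and Lrg1 at -1.29, and none of these passed after adjustment. In those fits 4.28% and 3.63% of all genes had such a p. For Saa3, Hpx, Hp, Cp and Steap4 the difference ran from -0.35 to 0.40.

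**Figure D4:**
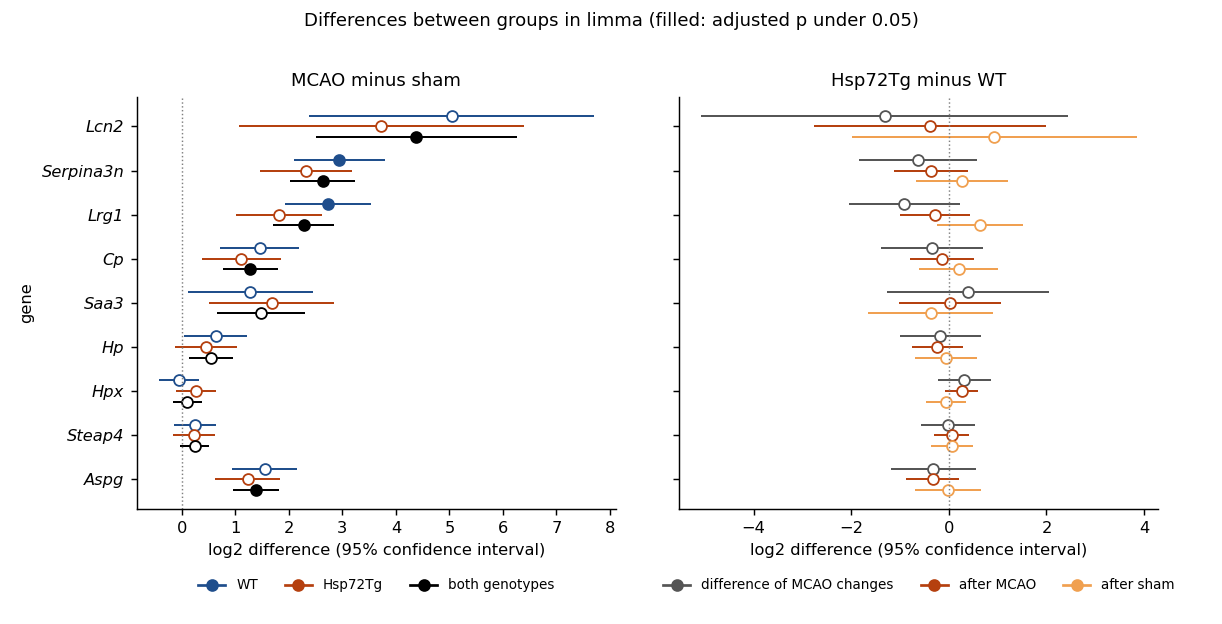
Log2 differences (x axis) of the 9 genes (y axis) with 95% confidence intervals from limma, as MCAO minus sham on the left and Hsp72Tg minus WT on the right. Filled points passed at an adjusted p under 0.05, which holds for Serpina3n and Lrg1 in WT and for 5 genes over both genotypes, and every interval on the right spans 0.

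After MCAO the values of Hsp72Tg minus WT ran from -0.38 for Lcn2 to 0.26 for Hpx, and 0 of 9 passed in limma, with 0 at an unadjusted p under 0.05, where 0% and 2.68% of all genes passed. The sign rested on Hsp72Tg MCAO 1 for 5 members. Without it the value was 1.20 for Lcn2, 0.01 for Serpina3n, 0.14 for Lrg1, 0.26 for Cp and 0.08 for Hp, none of which passed after adjustment. Without this array Lcn2, Saa3 (0.66, SE 0.26) and Hpx (0.40, SE 0.14) had an unadjusted p under 0.05 in limma, as had 8.85% of all genes. Without Hsp72Tg MCAO 3 it was Serpina3n (-0.82, SE 0.21), Lrg1 (-0.65, SE 0.25) and Aspg (-0.63, SE 0.18), where 6.39% of all genes had such a p. The 2 sets share no member, with positive values in the first and negative values in the second. In either fit 0 of 9 passed after adjustment. For Lcn2 the interval with all arrays was -2.76 to 2.00.

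In sham mice 0 of 9 passed between the genotypes in limma, with 0 at an unadjusted p under 0.05, where 0% and 1.56% of all genes passed. Both Hsp72Tg sham arrays stood above both WT sham arrays for Lcn2 (difference 0.93, SE 1.30) and Lrg1 (0.63, SE 0.39), and below them for Saa3 (-0.37, SE 0.57). Such separation was seen for 12.8% of all genes higher and 14.2% lower. With only the sham arrays in the fit, these 3 members had an unadjusted p under 0.05 in limma, as had 2.24% of all genes. Lcn2 and Lrg1 had one without Hsp72Tg MCAO 1 (2.06% of all genes), and Lrg1 without Hsp72Tg MCAO 3 (1.66%). None passed after adjustment in any of these fits. The Lcn2 difference was 0.37 without Hsp72Tg sham 1.

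Genes of the signalling route that leads to the acute-phase response were taken from a list of 21, of which 20 were measured. Over both genotypes 7 of 20 rose in limma and 0 fell, with a median of 0.79, where 1.06% of all genes rose. The 4 with the smallest p were Osmr, the receptor of oncostatin M (3.06, SE 0.22), Tnfrsf1a, a receptor of tumor necrosis factor (1.35, SE 0.16), Cebpd, a C/EBP transcription factor (2.35, SE 0.33), and Stat3 (1.17, SE 0.16). In WT and in Hsp72Tg only Osmr of the 20 passed, with 15 at an unadjusted p under 0.05 each, as had 10.2% and 12% of all genes.

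Of 26 measured genes on a list of other acute-phase proteins, 3 rose over both genotypes, with a median of 0.10, and 10 were higher at an unadjusted p under 0.05, as 19.1% of all genes were in either direction. They were A2m, the protease inhibitor alpha-2-macroglobulin (2.21, SE 0.31), and the metal-binding metallothioneins Mt1 (0.88, SE 0.17) and Mt2 (1.31, SE 0.27). In WT and in Hsp72Tg 0 of 26 passed in limma, with 8 and 5 at an unadjusted p under 0.05, as had 10.2% and 12% of all genes. Paralogs of the members, among them other serpins of the A3 cluster and Steap1 to Steap3, gave 0 of 9 calls over both genotypes in limma, with 1 lower at an unadjusted p under 0.05 and a median of 0.02.

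Receptors and partners of the member proteins numbered 19 measured genes, of which 4 rose over both genotypes, with a median of 0.18, where 1.06% of all genes rose. They were the pattern receptor Tlr2 (1.38, SE 0.20), the heme-degrading enzyme Hmox1 (2.43, SE 0.39), Tgfb1 (0.95, SE 0.16) and the TGF-beta receptor Tgfbr2 (0.72, SE 0.13). In WT and in Hsp72Tg 0 of 19 passed in limma. At an unadjusted p under 0.05, 6 were higher and 1 lower in WT. In Hsp72Tg 7 were higher and 2 lower, where 10.2% and 12% of all genes had such a p. The lipocalin-2 receptors Slc22a17 and Lrp2, named here for that role after their values were seen, differed by -0.12 (SE 0.09) and -0.02 (SE 0.07) and did not pass. All 8 other pan-reactive astrocyte genes rose over both genotypes (median 2.54), led by Osmr, Hspb1, S1pr3 and Cd44. In WT 4 of the 8 rose, where 0.0495% of all genes did. In Hsp72Tg 1 of the 8 rose, where 0.022% of all genes passed in either direction. The list was chosen with that rise known from earlier results of these arrays, so its count is not independent evidence.

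The genes most like each member were sought by the mean absolute difference over the 10 arrays, after each gene was set relative to its WT sham mean. The members themselves and genes with clone or predicted names were passed over. For Serpina3n the nearest remaining genes were Cebpd (0.29) and Hspb1 (0.29), and for Lrg1 they were Cebpd (0.22) and Ch25h (0.29). For Lcn2 they were Emp1 (0.83) and Cd14 (0.97). For Cp they were Ifitm2 (0.16) and Tnfrsf1a (0.17), for Saa3 Adamts4 (0.22) and Lyve1 (0.24), and for Aspg Pros1 (0.08) and Slc14a1 (0.09). A gene of small change is nearer to many others on this measure, so the values are not compared between members.

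**Figure D5:**
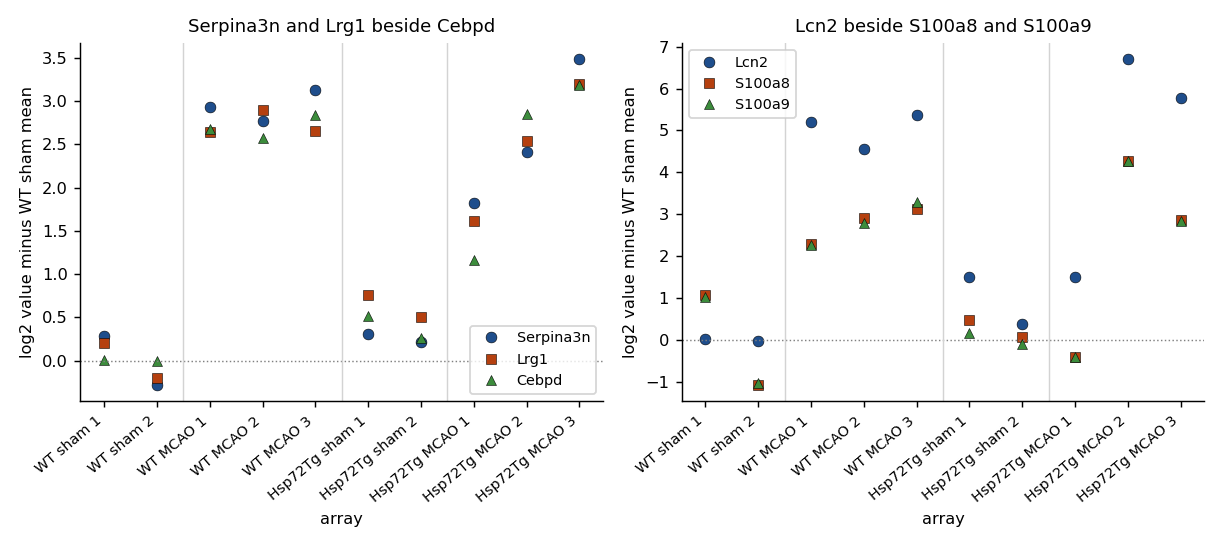
Log2 value minus the WT sham mean (y axis) on each of the 10 arrays (x axis) for Serpina3n and Lrg1 beside Cebpd on the left and for Lcn2 beside the neutrophil genes S100a8 and S100a9 on the right. Cebpd stays between 2.57 and 3.19 on 5 MCAO arrays and at 1.16 on Hsp72Tg MCAO 1, where S100a8 and S100a9 are at -0.40 and -0.41.

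Markers of cells that could carry these transcripts were read beside them. Of 12 measured neutrophil markers, 0 passed over both genotypes in limma and 3 had an unadjusted p under 0.05, as had 19.1% of all genes. Their mean, relative to WT sham, lay between -0.29 and 0.29 in sham, between 0.32 and 0.60 in WT MCAO and between -0.17 and 1.09 in Hsp72Tg MCAO. S100a8 and S100a9, abundant neutrophil proteins named after their values were seen, stood in the order of Lcn2 across the 3 Hsp72Tg MCAO arrays, as did Ngp, Mmp8 and Mmp9. These are 5 of the 12 markers, where 16.5% of all other genes stood in that order. Hsp72Tg MCAO 1 was the lowest MCAO array for 20.1% of all genes. That share was 94.1% among the 187 genes with a change of at least 1 over both genotypes. Ngp, Mmp8 and Mmp9 were not among those 187. Whether this order is particular to neutrophil markers was not tested. Across the 3 WT MCAO arrays 1 of 12 markers, Csf3r, had the order of Lcn2 there, and S100a8 and S100a9 did not. Of all other genes 12.5% had that order in WT MCAO. S100a8 measured 6.20, 10.88 and 9.46 in Hsp72Tg MCAO, 8.89, 9.51 and 9.72 in WT MCAO and between 5.53 and 7.67 in sham. Its difference of 2.38 (SE 0.78, adjusted p = 0.144) did not pass. The part of neutrophils in the Lcn2 values was not tested.

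Among the other marker lists, over both genotypes in limma, calls were 0 of 10 for astrocytes, 0 of 8 for monocytes and macrophages, 0 of 8 for microglia, 0 of 9 for choroid plexus, 0 of 8 for meningeal and perivascular fibroblasts, 0 of 10 for neurons and 0 of 9 for hepatocytes. At an unadjusted p under 0.05, which 19.1% of all genes reached, 3 of 10 astrocyte markers, 6 of 8 monocyte and macrophage markers and 3 of 8 fibroblast markers were higher. So were 6 of 8 endothelial and 2 of 7 oligodendrocyte markers. In the other direction, 2 of 8 microglia, 2 of 9 choroid plexus, 1 of 8 fibroblast, 4 of 10 neuron and 1 of 9 hepatocyte markers were lower. The same held for 1 of 8 endothelial and 2 of 7 oligodendrocyte markers. The part of these cells in the values of the members was not tested. Of 8 endothelial markers 2 rose after adjustment, Pecam1 (1.0, SE 0.18) and Cldn5 (0.65, SE 0.12), and of 7 oligodendrocyte markers Mog fell by 0.58 (SE 0.12). Neither list moved as a whole in 1 direction: 6 of 8 endothelial markers (median 0.62) and 4 of 7 oligodendrocyte markers (median 0.09) were higher in value. The astrocyte markers averaged between 0.05 and 0.10 above WT sham in WT MCAO and between -0.03 and 0.31 in Hsp72Tg MCAO. They were listed as markers of the cell type, and whether they also change with its reaction was not tested. Of the 9 hepatocyte markers 3, Alb, Fgb and Cyp2e1, stayed below the lower quartile of all genes on every array. Ttr, which the choroid plexus also makes, lay at 13.86 to 14.13 after MCAO and 13.92 to 14.10 in sham, and the other 5 did not stay below that quartile on every array.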

How the data were processed

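The deposited values are log2 expression values, 1 per probe set and array, which the authors computed by RMA according to the submitters' processing notes. RMA subtracts background, makes the arrays comparable and reduces the probes of each set to 1 value. For its version and settings nothing is given in the sources used here. No detection flag was applied, since scanner files were not used here, and the number of arrays limits the precision. The 10 array columns were tied to samples by their titles.

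Of 45101 probe sets, 64 controls were left out, 34945 had 1 gene symbol, 932 had several and 9160 had none. Symbols were checked through Entrez identifiers in the RefSeq table of GRCm38.p6 (34741 matched, 0 changed). Keeping the probe set with the highest mean per gene left 18193 genes.

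Groups were compared in limma 3.58.1 under R 4.3.3 (lmFit, contrasts.fit, eBayes), all 10 arrays sharing 1 fit of group means with 6 residual and 3.72 prior degrees of freedom. P-values are two-sided, adjusted by Benjamini-Hochberg over all genes, and called under 0.05. The same code was tested on simulated data. The pairs of arrays held 0 identical pairs.

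The members, the lists and the alternatives were chosen with earlier results of these data known. The text names the 9 members, up to 4 passing genes of a list with the smallest p, and for each member that passed or changed by over 1 up to 2 genes of the most similar pattern. Some names outside this rule are marked as such. Others are not, among them Hspa1b, Ngp, Mmp8, Mmp9, Csf3r, Alb, Fgb, Cyp2e1 and Ttr. Promoter sequences are RefSeq's and 8 of 9 members had a window. The fits were repeated with a replicate block, on the compared arrays alone, on means over probe sets, after quantile normalization or median centring, with trend and robust eBayes, with array weights, without dim probe sets, at an adjusted p under 0.01 and without each array in turn.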

Additional observations from a re-analysis of the deposited data

How the results depend on the processing

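Counts of the 9 members that passed differed between fits. For MCAO minus sham in WT, 2 passed in the reported fit. The count was 6 with only the arrays compared and 6 with array weights, both Lcn2, Serpina3n, Lrg1, Cp, Hp and Aspg. It was 0 with the mean over probe sets, with quantile normalization, with eBayes trend and robust options and at an adjusted p under 0.01, with 7, 7, 6 and 7 members at an unadjusted p under 0.05. In those fits 10.2%, 10.6%, 10.2% and 10.2% of all genes had such a p. Leaving out each array gave 0 to 7. Over both genotypes 5 passed in the reported fit, 2 at an adjusted p under 0.01 and 0 to 8 with each array left out. In Hsp72Tg 0 passed in the reported fit and 0 to 7 with each array left out.

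Of all genes, 10 were called in WT, 955 with only the arrays compared, 6 with the mean over probe sets, 1358 with array weights, 1 at an adjusted p under 0.01 and 0 to 463 with each array left out. In Hsp72Tg 4 were called, 0 with only the arrays compared, 0 at an adjusted p under 0.01 and 0 to 1181 with each array left out. Over both genotypes 266 were called, 1116 with array weights, 15 at an adjusted p under 0.01 and 11 to 2251 with each array left out. The cause of these moves was not tested, except that a stricter threshold calls fewer genes.

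The labels do not say that equal replicate numbers pair arrays. Deviations from the group means of the 13 same-numbered pairs correlated at r between -0.16 and 0.25, and 2 pairs exceeded 0.1. In groups of so few arrays these deviations depend on each other, so the correlations cannot decide whether arrays were paired. With the replicate number as a block, members passed in 0 of 9 cases in WT (5 at an unadjusted p under 0.05), 0 in Hsp72Tg and 2 over both genotypes, Serpina3n and Aspg, and 0, 0 and 19 of all genes were called. In WT 8.74% of all genes had an unadjusted p under 0.05 in limma with this block. No called member changed direction under any alternative. The fit with only the arrays compared has no value for the contrasts over all 4 groups, and the filter on dim probe sets, which kept 11840 genes, has none for Hp, Hpx and Steap4.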
